A study of Homo sapiens with 24 samples.

Results

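Ribosome footprints were set against input RNA in parental HCT15, a human colon cancer line, to ask which mRNAs carried many or few footprints for their RNA. The comparison used 2 libraries of ribosome-protected fragments (RPF) and 2 libraries of input RNA (INPUT), chosen by their labels, which are 4 of the 24 libraries in the series. All 4 carry the genotype label WT, and the cells of every library had received cycloheximide (100 µg/mL for 10 minutes). The design text asks how translation in HCT116, HCT15 and SW620 differs from that in 841CON, a population labelled as normal colon epithelium. The other populations, each with 2 RPF and 2 INPUT libraries, were HCT15 labelled PLVX and WT (called the vector line here), HCT15 labelled as overexpressing COPS7B, 841CON, HCT116 and SW620. Nothing in the labels says that replicates were grown separately, so the p-values reflect variation among libraries that may be only technical.

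Ribosome profiling freezes elongating ribosomes on mRNA with cycloheximide and sequences the short stretch of message that each ribosome shields from nuclease. The footprint count of a gene rises with the amount of its mRNA and with the number of ribosomes on each copy, and the ratio of footprints to RNA is commonly read as translational efficiency. A low ratio marks mRNA that is present with few ribosomes on it, as happens when initiation is held back. A low ratio can also arise from the counting, because INPUT reads fall on untranslated regions that elongating ribosomes do not cover. Genes carry only Ensembl identifiers in these files, with no gene names beside them, so gene groups are described here by their footprint load, RNA level and behaviour in the other populations.

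The RPF libraries held 1473562 and 4679279 counts in the 20426 genes listed in every library, and the INPUT libraries held 4309463 and 1951142. Counts were detected for 11546 and 11121 of these genes in RPF and for 10942 and 12311 in INPUT. Levels are given as CPM, counts brought to a common library size by trimmed-mean scaling over all 24 libraries, so that the typical gene is set to equal RPF and INPUT levels and a difference in translation common to all mRNAs cannot be seen. The replicates stood well apart. The coefficient of variation beyond counting noise was 0.618 for the RPF pair and 0.596 for the INPUT pair, near the upper end of the 0.0382 to 0.721 seen over the 12 pairs of the series. Of the 10612 genes tested, 62.9% lay within 2-fold between the RPF replicates and 69.5% between the INPUT replicates. Across these genes log2 CPM correlated at r = 0.810 between the RPF libraries and 0.794 between the INPUT libraries, against 0.585 to 0.650 between an RPF and an INPUT library. These correlations are descriptions across genes, which are not independent replicates.

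Footprint levels followed RNA levels only loosely across genes, in libraries whose replicates also stood apart. How much of the looseness comes from variation between replicates was not tested. The median log2 ratio of RPF over INPUT was -0.03, with quartiles of -1.05 and 0.86, and 5540 genes (52.2%) lay within 2-fold of equal levels. At an adjusted p under 0.05 by edgeR's quasi-likelihood test, 1298 genes (12.2%) were higher in RPF and 1580 (14.9%) were lower in RPF. The remaining 7734 genes (72.9%) did not pass, and 4115 genes had an unadjusted p under 0.05. Called genes had a median log2 ratio of 1.83 on the high side and -2.42 on the low side. Neither median moved when genes with no count in one assay were set to their bound, which is the ratio against a floor of 3 counts over the pair of libraries. With those bounds in place, 564 high genes and 999 low genes differed by over 4-fold, and 167 high genes and 346 low genes by over 16-fold.

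**Figure D1:**
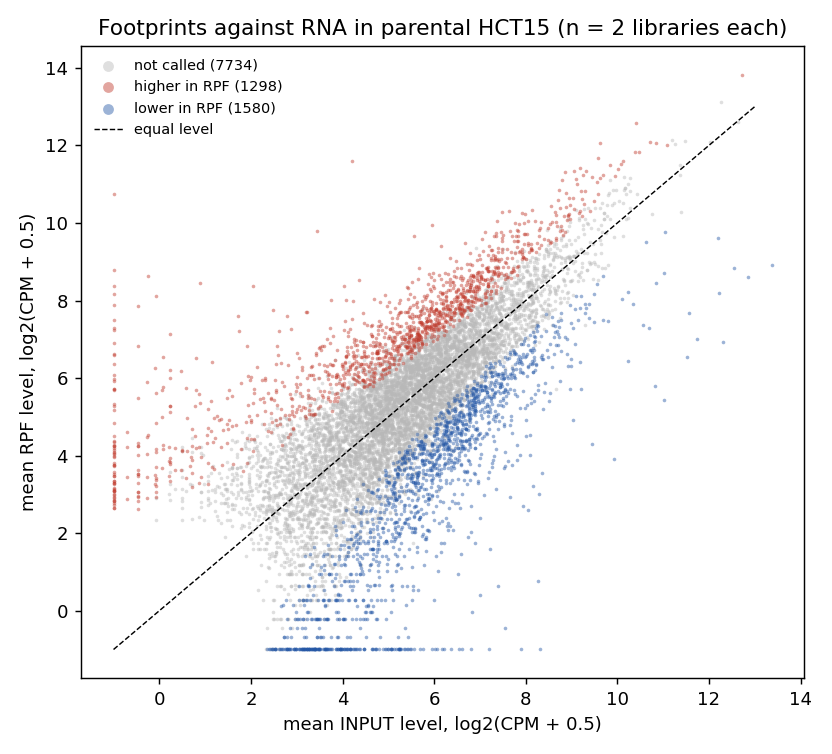
Each point is 1 of the 10612 tested genes, placed by its mean INPUT level (horizontal) and mean RPF level (vertical) in parental HCT15, both as log2(CPM + 0.5) over 2 libraries. The 1298 genes higher in RPF lie above the dashed line of equal levels and the 1580 lower genes below it; the bands along the left and lower edges are genes with no count in INPUT or in RPF.

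The libraries of the called genes were mostly apart. Both RPF values exceeded both INPUT values for 1270 of the 1298 high genes, against 27.7% of all tested genes. Both RPF values were below both INPUT values for 1558 of the 1580 low genes, against 29.6% of all tested genes. A further 3253 genes had libraries that did not overlap but did not pass the test. The calls drew their estimate of spread from all 24 libraries, including pairs that varied far less than the parental HCT15 pairs. When the 4 parental libraries were fitted alone, edgeR called 344 genes higher (3.29%) and 297 lower (2.84%) of 10455 tested. No gene called by both fits changed direction. Without trimmed-mean scaling the median log2 ratio was -0.27, and 32.6% of called genes were on the high side in place of 45.1%.

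Genes on the high side took up a large part of all footprints. The 1298 high genes held 36.6% and 35.9% of RPF counts, against 13.7% and 13.4% of INPUT counts. The 1580 low genes held 4.50% and 3.76% of RPF counts, against 24.9% and 21.5% of INPUT counts. These shares follow from the calls and are given as a description of their size. By RNA level the classes were closer: the median INPUT level was 43.4 CPM for high genes, 37.2 CPM for genes not called and 60.5 CPM for low genes. The same INPUT libraries enter the ratio that set the classes. In the vector line, whose libraries the ratio does not use, median INPUT levels were 53.5, 37.7 and 51.3 CPM in that order. High genes were thus not poorer in RNA than low genes there. Median RPF levels of the classes in parental HCT15 were 151, 37.9 and 11.9 CPM in the same order. The spread of counts over genes was compared in 3 ways. The most abundant 759 and 698 genes made up 50% of RPF counts, while 910 and 1090 genes were needed in INPUT. The 10 most abundant genes held 5.56% and 6.21% of RPF counts and 7.52% and 5.74% of INPUT counts, so at the very top the libraries overlapped. The SD of log2 CPM over tested genes was 2.15 and 2.43 in RPF and 2.05 and 1.83 in INPUT.

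**Figure D2:**
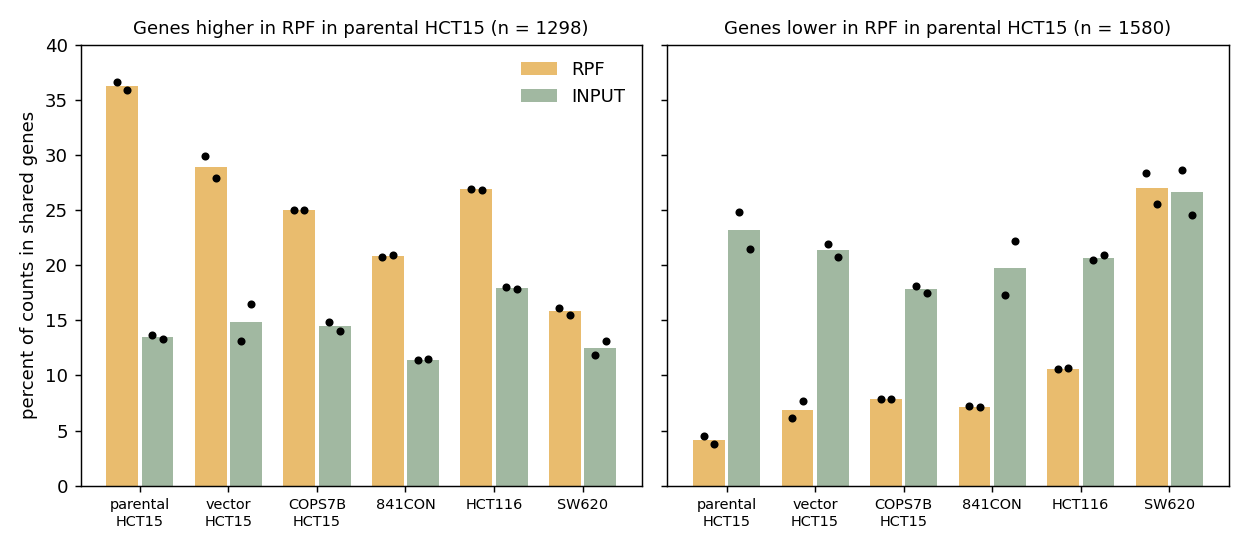
Percent of counts in shared genes (vertical axis) held by the genes called higher (left panel) or lower (right panel) in RPF in parental HCT15, for RPF (orange) and INPUT (green) of each population; bars are means of 2 libraries and points are the libraries. In parental HCT15 the low genes held 4.50% and 3.76% of RPF counts, and in SW620 they held 28.4% and 25.6%.

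The ratio was next set against RNA abundance. INPUT enters the ratio itself, so genes were divided into 5 bins of equal size by their INPUT level in the vector line, whose libraries the ratio does not use. The median log2 ratio in parental HCT15 lay between -0.04 and 0.00 in every bin. The spread was widest at low RNA. The interquartile range was 3.02 on the log2 scale in the lowest bin, where vector INPUT levels were at most 15.7 CPM, and 1.99, 1.78, 1.71 and 1.60 in bins of rising RNA level. Genes higher in RPF made up 12.5%, 7.54%, 10.7%, 13.7% and 16.7% of the bins from low to high. Genes lower in RPF made up 13.3%, 11.8%, 13.8%, 16.97% and 18.6%. Deeper counts give a test more power, and how much of the larger share in the upper bins comes from depth was not tested. Of the 179 genes with no RPF count, 122 were in the lowest bin, as were all 65 genes with no INPUT count.

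**Figure D3:**
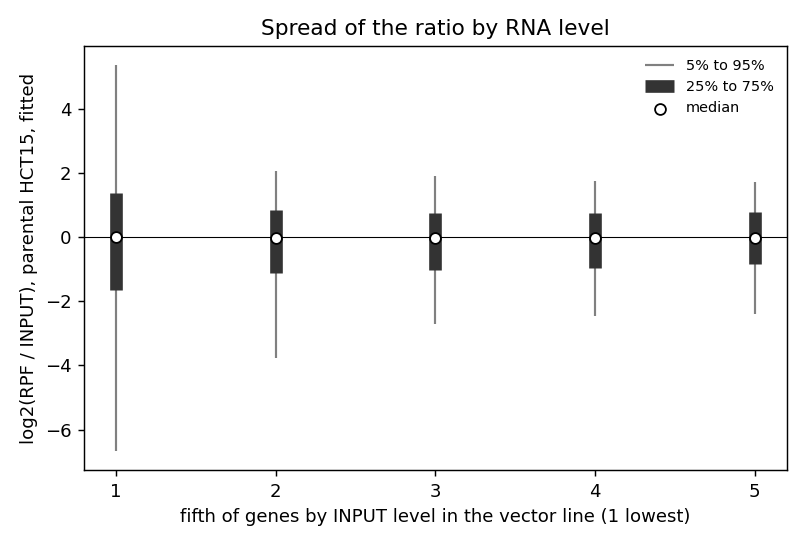
Fitted log2 ratio of RPF over INPUT in parental HCT15 (vertical axis) for 5 equal bins of genes by INPUT level in the vector line (horizontal axis, 1 lowest). Circles are medians, thick bars the middle 50% and thin lines the 5% to 95% range of genes; the medians stay near 0 while the middle 50% narrows from 3.02 to 1.60 log2 units.

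The mRNAs with the most RNA were looked at next. Of the 20 genes with the highest INPUT level, 9 were called lower in RPF, 2 higher and 9 in neither direction, where 14.9% of all tested genes were lower and 12.2% higher. In the bin of highest RNA level 18.6% were lower. Each of the 9 had a log2 ratio of -2.61 or below, and 6 of them differed by over 16-fold. The 20 genes together held 5.19% and 5.98% of RPF counts, against 10.7% and 8.44% of INPUT counts. The INPUT libraries both pick these genes and enter their ratio. The 20 genes with the highest INPUT level in the vector line were picked without parental libraries, and 12 of them were lower in RPF in parental HCT15 and 1 was higher. Of the 9 low genes, 8 were also called lower in RPF in the vector line, 5 in COPS7B HCT15 and 9 in 841CON, where 7.53%, 2.6% and 24.3% of all tested genes were.

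The most footprint-rich genes were a partly different group. Of the 20 genes with the highest RPF level, 13 were called higher in RPF, 0 lower and 7 in neither direction, beside 12.2% higher and 14.9% lower among all tested genes. RPF libraries both pick these genes and enter their ratio. In the vector line the 20 genes of highest RPF level included 9 called higher and 0 called lower in parental HCT15. The 10 highest in parental HCT15 had mean RPF levels of 4251 to 14506 CPM, against mean INPUT levels of 783 to 6761 CPM. Of these 10 genes 5 were called higher in RPF, and their log2 ratios ran from -0.04 to 2.44, so the leading footprint sources combined abundant RNA with a footprint load from typical to several-fold above it. The 20 highest RPF genes and the 20 highest INPUT genes shared 9 members, and the 100 highest of each shared 54.

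Some mRNAs had no footprint count at all. Neither RPF library had a count for 179 tested genes, whose mean INPUT count per library ranged from 20 to 1115 with a median of 42, and 174 of them were called lower. All of them entered the test through their INPUT counts alone, so a low ratio was the only possible outcome for them. Where INPUT averaged 50 counts or more, 76 of 8299 genes had no RPF count. The 5 with the highest INPUT level stood at 97.5 to 319 CPM in INPUT. A floor of 3 counts over both RPF libraries corresponds to 0.540 CPM, which places their footprints at least 181-fold to at least 592-fold lower than their RNA (edgeR adjusted p from 1.41e-07 to 1.77e-05). These bounds cover counting error only.

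Many of these genes had footprints in the other HCT15 lines. Of the 179 genes, 133 had an RPF count in at least 1 vector library and 149 in at least 1 COPS7B library, while 44 had one in 841CON. The RPF libraries also differed in how many shared genes had any count. These were 12489 and 12839 in the vector line, 14234 and 14518 in COPS7B HCT15 and 10760 and 10202 in 841CON. The part of this in the contrast was not tested. In all, 154 had a count in some other RPF library and 25 had none in any. Of the 5 most RNA-rich, 4 had vector footprints, 5 had COPS7B footprints and 1 had 841CON footprints. The reverse case was rarer. No INPUT count was found for 65 tested genes, all of them called higher, with mean RPF counts per library of 20.5 to 4194 and a median of 44.5. They entered the test through their RPF counts alone, so a high ratio was the only possible outcome for them. Of these, 33 had an INPUT count in a vector library and 35 in a COPS7B library. Among the 7252 genes with a mean RPF count of at least 50, 30 had no INPUT count.

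The largest fitted ratios with counts in both assays were examined gene by gene. On the high side 930 genes were eligible and on the low side 1243, by minimum counts and non-overlapping libraries. The 12 highest had log2 ratios of 7.42 down to 3.26, and the 12 lowest had log2 ratios of -8.52 up to -5.85. The leading pair on each side is given by identifier.

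ENSG00000278677 had the highest ratio of the eligible genes. It had 3754 and 2425 CPM in RPF, against 20.2 and 15.5 CPM in INPUT, from 5270 and 10078 RPF counts and 92 and 34 INPUT counts. The 2 RPF libraries were both far above the 2 INPUT libraries, with a log2 ratio of 7.42 (edgeR adjusted p = 4.72e-08). Its pooled footprint level was 155-fold its mean RNA level. It was higher in RPF in every other population as well, with edgeR adjusted p-values from 6.51e-08 to 4.38e-06 and log2 ratios of 5.91 in the vector line, 6.34 in COPS7B HCT15, 9.44 in 841CON, 3.51 in HCT116 and 5.21 in SW620. In 841CON it had 0 and 1 INPUT counts, so the ratio there rests on almost no RNA counts. Its RPF level was 1010 to 2340 CPM in the vector and COPS7B libraries, and 138 to 547 CPM in those of 841CON, HCT116 and SW620.

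ENSG00000166337 followed. It had 385 and 278 CPM in RPF, against 18.2 and 13.7 CPM in INPUT, with no overlap and a log2 ratio of 4.36 (edgeR adjusted p = 0.0036). The pooled footprint level was 19.2-fold its mean RNA level. The log2 ratio was 3.92 in the vector line, 3.84 in COPS7B HCT15, 2.86 in HCT116 and 3.45 in SW620, each past the threshold (edgeR adjusted p from 0.0124 to 0.0379). In 841CON it was 1.43 and did not pass (edgeR adjusted p = 0.28), where RPF levels were 33.6 and 51.2 CPM, against 38.6 and 0 CPM in INPUT.

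ENSG00000205542 had the lowest ratio of the eligible genes. It had 2.14 and 0.241 CPM in RPF, from 3 and 1 counts, against 347 and 269 CPM in INPUT, from 1580 and 592 counts. The log2 ratio was -8.52 (edgeR adjusted p = 3.79e-07). Pooled over both RPF libraries, footprints were 428-fold lower than RNA, with a 95% Poisson interval of 167 to 1572 from the 4 footprint counts alone. Its INPUT levels were 550 and 377 CPM in the vector line, 1169 and 2091 CPM in 841CON and 2725 and 1311 CPM in SW620. In COPS7B HCT15 they were far lower, at 33.1 and 29.8 CPM. The ratio passed as lower in RPF in all 5 other populations, with log2 values of -4.005 in the vector line, -3.08 in COPS7B HCT15, -6.10 in 841CON, -7.95 in HCT116 and -7.06 in SW620 (edgeR adjusted p from 5.69e-07 to 0.00167). It had 0 and 1 RPF counts in HCT116 and 1 and 2 in SW620, so the size of the ratio there is uncertain.

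ENSG00000145425 was the next lowest. It had 2.14 and 0 CPM in RPF, from 3 and 0 counts, against 220 and 117 CPM in INPUT, with a log2 ratio of -8.02 (edgeR adjusted p = 6.47e-06). Pooled footprints were 312-fold lower than RNA, with a 95% Poisson interval of 107 to 1515. The ratio was lower in RPF in the vector line at a log2 value of -5.57, in COPS7B HCT15 at -4.87, in 841CON at -7.72 and in SW620 at -3.76 (edgeR adjusted p from 1.86e-05 to 0.00501). It had 0 and 1 RPF counts in 841CON and 4 and 3 in SW620, so the size of the ratio there is uncertain. HCT116 stood apart, with 192 and 156 CPM in RPF against 251 and 281 CPM in INPUT. The log2 ratio there was -0.61, which did not pass (edgeR adjusted p = 0.35). Reads from near-identical copies of a gene may be split or lost in counting, and how such reads were handled is not given in the sources used here, so low counts of a gene with such copies are uncertain.

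**Figure D4:**
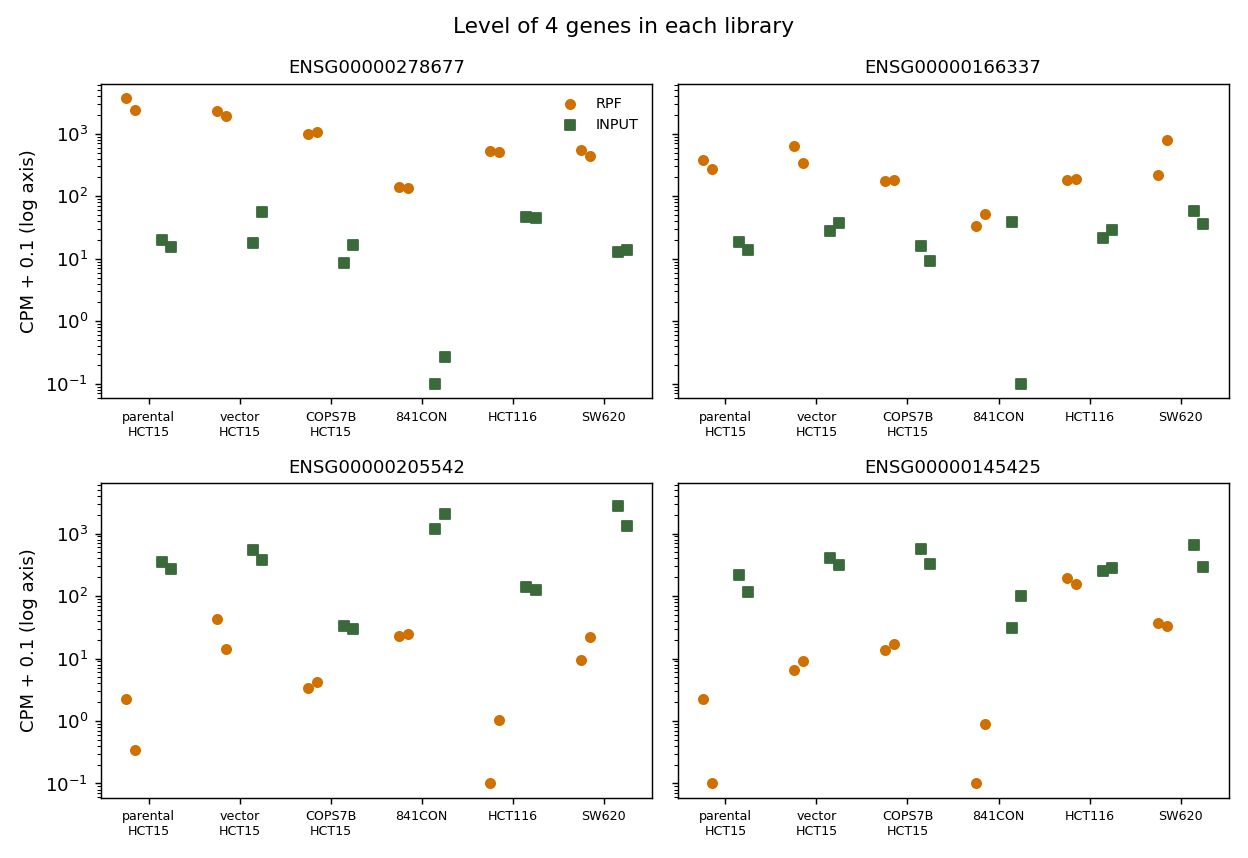
Level of the 4 named genes in every library, in CPM with 0.1 added on a log axis, for RPF (orange circles) and INPUT (green squares) in 6 populations; each point is 1 library. In parental HCT15 the upper genes have RPF far above INPUT (3754 and 2425 against 20.2 and 15.5 CPM for ENSG00000278677) and the lower genes have RPF far below INPUT (2.14 and 0.241 against 347 and 269 CPM for ENSG00000205542).

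The same measure in the other populations, which share no library with parental HCT15, shows how far the calls recur. All calls come from 1 model with 1 estimate of spread per gene, to which the parental libraries contribute. A gene with a small estimate is more readily called in every population. How much of the recurrence comes from this was not tested. In the vector line 396 of the 1235 high genes tested there were called higher in RPF (32.1%), where 5.57% of all tested genes were. Of the 1443 low genes tested, 520 were called lower (36.04%), where 7.53% of all tested genes were. In the other direction, 0 of the high genes were called lower and 1 of the low genes was called higher. The shared genes made up 76.4% of the high calls and 67.8% of the low calls of the vector line among genes tested in both. Over all of these genes, called there or not, direction leaned the same way. In the vector line 93.7% of the high genes and 8.87% of the low genes had a positive log2 ratio. Among the parental uncalled genes tested there 49.5% did. Median log2 ratios were smaller than in parental HCT15, at 1.02 for high genes and -1.24 for low genes, where the parental medians come from the libraries that chose the genes.

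COPS7B HCT15 had fewer calls of its own. It shared 239 of 1250 high genes (19.1%) against 2.58% of all genes called higher there, and 256 of 1510 low genes (16.95%) against 2.6% called lower. These were 82.4% and 86.8% of the calls of COPS7B HCT15 among genes tested in both, and 0 high and 2 low genes were called in the opposite direction. Median log2 ratios were 0.88 for high genes and -0.87 for low genes.

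The remaining populations are not HCT15. In 841CON 542 of 1192 high genes (45.5%) were called higher, against 14.7% of all genes, and 827 of 1422 low genes (58.2%) were called lower, against 24.3%. Opposite calls were made there for 50 high genes and 68 low genes. The 841CON RPF libraries are a pair that varied little, at a coefficient of variation of 0.0480. The 841CON INPUT libraries, the other part of the ratio, varied most of all pairs in the series, at 0.721. Between them 54.5% of genes lay within 2-fold. In HCT116 381 of 1175 high genes (32.4%) were called higher, against 18.1% of all genes, and 789 of 1331 low genes (59.3%) were called lower, against 40.6%. Opposite calls were made for 219 high genes (18.6%) and 124 low genes (9.32%). In SW620 33 of 1020 high genes were called higher (3.24%), against 1.27% of all genes, and 32 were called lower (3.14%). Of 1297 low genes there, 224 were called lower (17.3%), against 7.06%, and 15 were called higher. In HCT116 the median log2 ratio was 0.41 for parental high genes and -1.96 for parental low genes, beside -0.58 for genes not called. In SW620 the same medians were -0.06, -0.89 and -0.37, so high genes stood above the uncalled genes by a small margin. The SW620 RPF libraries held 98043 and 84262 counts, the fewest of all, and the part of depth in this was not tested. With genes at 0 set to their bounds, the SW620 low median was -0.79, and the HCT116 medians did not move.

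**Figure D5:**
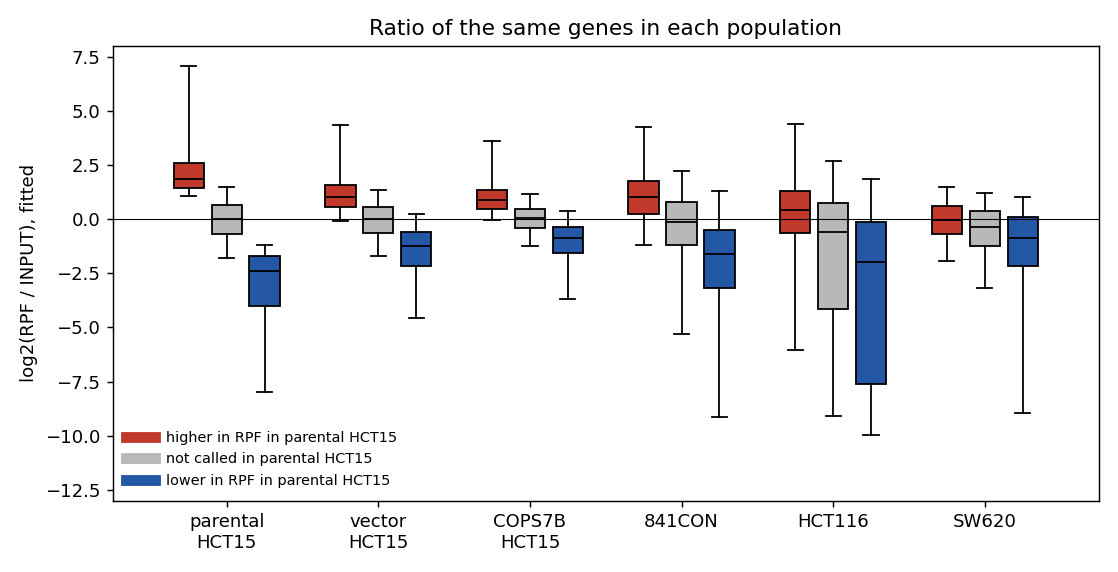
Fitted log2 ratio of RPF over INPUT (vertical axis) in 6 populations for genes called higher (red), not called (grey) or lower (blue) in parental HCT15, over genes tested in that population. Boxes are the middle 50% of genes with the median, and whiskers reach from 5% to 95%; in parental HCT15 the calls themselves set the separation, while the red and blue medians in the vector line are 1.02 and -1.24.

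The share of all counts held by these genes gives the same comparison without a call. The parental high genes held 29.9% and 27.9% of RPF counts in the vector line, against 13.2% and 16.5% of its INPUT counts. They held 24.98% and 24.97% of RPF counts in COPS7B HCT15, against 14.9% and 14.01% of INPUT counts. The parental low genes held 6.13% and 7.67% of RPF counts in the vector line, against 22.0% and 20.8% of INPUT counts, and 7.85% in both COPS7B RPF libraries, against 18.1% and 17.5% of INPUT counts. In SW620 no such gap was seen for the low genes, with 28.4% and 25.6% of RPF counts against 28.7% and 24.6% of INPUT counts. Across genes, the log2 ratio of parental HCT15 correlated at r = 0.701 with that of the vector line, 0.682 with COPS7B HCT15, 0.512 with 841CON, 0.326 with HCT116 and 0.301 with SW620. These correlations are over 8153 to 10017 genes and are descriptions, since genes share depth and scaling within a library.

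Some genes were called in the same direction in 4 populations, by tests that used the same estimate of spread for each gene. Among genes tested in parental HCT15, the vector line, COPS7B HCT15 and 841CON, 150 of the 1156 high genes and 215 of the 1330 low genes were called the same way in all 4. These are 12.98% of the high and 16.2% of the low genes, while of all 8696 genes tested in the 4 populations 167 (1.92%) were called higher and 236 (2.71%) lower in all of the other 3. The 150 genes had a median level of 246 CPM in RPF against 32.8 CPM in INPUT, and a median log2 ratio of 2.49 in parental HCT15. The 215 genes had a median of 15.5 CPM in RPF against 111 CPM in INPUT, and a median log2 ratio of -3.07. These 215 genes held 0.940% and 0.835% of RPF counts, against 9.47% and 7.22% of INPUT counts. In the populations that did not enter the choice, the 150 genes had median log2 ratios of 1.52 in HCT116 and 0.80 in SW620. The medians over all genes tested both there and in parental HCT15 were -0.55 and -0.39. The 215 genes had medians in HCT116 and SW620 of -5.35 and -2.69 as fitted, and -3.35 and -1.77 with genes at 0 set to their bounds. The medians of the 150 and 215 genes were taken whether or not a gene was tested in HCT116 or SW620, so the gene sets compared are not alike.

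A test of the difference in ratio showed where parental HCT15 departed from the rest. Against the mean of the other 5 populations, the log2 ratio was higher in parental HCT15 for 888 genes (8.37%) and lower for 253 genes (2.38%) at an adjusted p under 0.05 by edgeR, and 2901 genes had an unadjusted p under 0.05. The median difference over all tested genes was 0.53, so the typical gene was itself shifted and the larger number of higher genes is to be read against that. A single population can move this mean. The interquartile range of log2 ratios was 4.78 in HCT116, against 1.06 to 2.25 in the rest. In HCT116 951 of the 6414 parental uncalled genes tested there had no RPF count. How many of the calls rest on HCT116 was not tested. Of the 1298 high genes 379 were called above the mean of the other 5 populations and 1 below it. Of the 1580 low genes 204 were called below that mean and 23 above it. The same parental libraries chose and measured these genes. The counts rested in part on single libraries. They were 491 higher and 180 lower without INPUT replicate 1, 576 and 146 without RPF replicate 2, and 1030 and 533 without RPF replicate 1.

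Against the vector line alone little could be told apart. The ratio was higher in parental HCT15 for 5 genes (0.0502%) and lower for 20 (0.201%) of 9955 tested by edgeR, and 1182 had an unadjusted p under 0.05. Of the 5 higher genes 4 were among the parental high genes, and of the 20 lower genes 17 were among the parental low genes. Among all 9955 tested genes, 1235 were parental high genes and 1443 were parental low genes. The same parental libraries set these classes and enter the difference, so this overlap is a description only. Of the 4 genes named above, ENSG00000205542 passed, with a log2 ratio of -8.52 in parental HCT15 and -4.005 in the vector line, a difference of -4.52 (edgeR adjusted p = 0.034). Its footprint level was 2.14 and 0.241 CPM in parental HCT15, against 42.3 and 14.3 CPM in the vector line. The call was lost without RPF replicate 2 (edgeR adjusted p = 0.23) and without INPUT replicate 1 (edgeR adjusted p = 0.051). None of the 4 genes passed against the mean of the other 5 populations. The counts against the vector line depended on single libraries: without RPF replicate 1 they were 104 higher and 582 lower, and without RPF replicate 2 they were 1 and 2. Without INPUT replicate 2 they were 104 and 58, and without INPUT replicate 1 they were 8 and 28.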

How the data were processed

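Footprints (RPF) and input RNA (INPUT) of 6 cultured colon cell populations were deposited by the authors as raw counts per Ensembl gene, 1 table per library. Per the labels' protocols, protected RNA was isolated after sucrose gradient centrifugation, depleted of ribosomal RNA and made into small-RNA libraries. The preparation of INPUT RNA is not given separately. The build GRCh38 and the tools cutadapt 3.5, STAR 2.7.9 and HTSeq 2.0.2 are listed in the submitters' processing notes, without settings. Strand, counted feature, annotation release and handling of multiply placed reads are not stated in the sources used.

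The 20426 identifiers present in every table were used, while the INPUT tables list 40197 more. One edgeR 4.0.16 quasi-likelihood model (R 4.3.3) with 12 group means was fitted to all 24 libraries, leaving 12 residual degrees of freedom, after edgeR's expression filter (minimum count 10, 13355 genes) and trimmed-mean scaling. Genes averaging at least 10 counts over the 4 parental libraries were tested, two-sided, with Benjamini-Hochberg adjustment over all of them. Groups came from the labels. Depth ranged from 1473562 to 4679279 counts over the 4 libraries, and intervals (95% Poisson) and the floor of 3 counts cover counting error only, since reads carry no molecular identifiers.

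Named genes were the called genes with non-overlapping libraries and the most extreme ratios, with minimum counts (a mean of 50 in INPUT, and over both RPF libraries 50 on the high side and 3 on the low side). The rule covers 12 genes a side. Only 2 a side are printed, because the files do not pair identifiers with names. For the same reason the prepared gene lists, cell type markers, study genes and protein length were not analysed here. Genes and lists were chosen with earlier results of these data known. The alternatives were other scalings, filters, fitted libraries and thresholds, thinning, DESeq2 1.42.0, limma 3.58.1, a replicate block and leaving out each parental library. An estimate of spread from the 4 parental libraries was added after seeing the data. The procedure was tested on simulated data in which a gene had the same spread in every library. The effect of unequal spread between pairs was therefore not tested.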

Additional observations from a re-analysis of the deposited data

Results flagged for a closer look

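The ratio of footprints to RNA of ENSG00000205542 differed between parental HCT15 and the vector line, with a difference of -4.52 on the log2 scale by edgeR's test of the difference. That call was lost without RPF replicate 2 and without INPUT replicate 1 of parental HCT15. Over all genes, 1141 had a ratio in parental HCT15 that differed from the mean of the other 5 populations, and 25 had a ratio that differed from that of the vector line. Without RPF replicate 2 only 1 higher and 2 lower genes differed from the vector line. The comparisons above left out INPUT counts in identifiers that the RPF tables do not list. These held 25.1% of all counts in INPUT replicate 1 and 17% in INPUT replicate 2 of parental HCT15. Of the 40197 such identifiers 4071 and 4229 had a count, and the 10 most abundant held 68.9% and 67.5% of the counts outside the shared genes, with 8 of the 10 common to both libraries.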

How the results depend on the processing

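No call of the footprint-to-RNA ratio reversed under any alternative run, and each of the 4 named genes stayed called in each of the 16 to 18 alternatives that tested it. The number of calls moved from the 1298 higher and 1580 lower genes under several settings. With the 4 parental libraries alone, which changes scaling, filter and tested genes as well as spread, 344 were higher and 297 lower, by limma with library weights 617 and 734, with close pairs of other groups summed 628 and 886, and against a change of at least 2-fold 461 and 786. Where RPF and INPUT each averaged 50 counts or more 565 were lower, fewer genes being tested, and 879 higher, 60.9% of the calls. With the spread of the 4 parental libraries and the genes and scaling of all 24, an alternative chosen after seeing the data, 775 were lower and 941 higher. Leaving out 1 parental library gave 904 to 1326 higher and 1074 to 2090 lower. DESeq2 gave 1204 and 2048. The deepest parental library, RPF replicate 2, was the one whose removal left fewest calls.

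For the difference from the other 5 populations, DESeq2 called 904 higher and 573 lower, and leaving out 1 library gave 491 to 1030 higher and 146 to 533 lower. For the difference from the vector line, DESeq2 called 71 higher and 143 lower, and leaving out 1 library gave 1 to 104 higher and 2 to 582 lower. A group left with 1 library was given the spread of the rest. Apart from fewer genes or samples, the cause of these changes was not tested.

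With a replicate block within each line, 1041 genes were higher and 1308 lower in RPF, 291 and 134 differed from the other 5 populations, and 0 and 0 differed from the vector line by edgeR, with 991 at an unadjusted p under 0.05. ENSG00000205542 then had an edgeR adjusted p of 0.13 against the vector line. The replicate numbers have no stated shared origin, and the deviations of same-numbered RPF and INPUT libraries correlated at r = 0.0059 across 10612 genes. Depth limits the lowest RNA-level bin most, and 3 counts are 2.14 and 0.722 CPM in the RPF libraries.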
